A study of Homo sapiens with 2 samples.

Results

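Bone morphogenetic proteins (BMPs), activins and the secreted proteins that bind them were examined as a group of 10 genes: BMP2, BMP4, BMP6, INHBA, INHBB, NOG, GREM1, FST, FSTL1 and FSTL3. They were chosen by gene symbol with earlier results of these arrays known. Every probe set annotated with any of these symbols was taken. This gave 20 probe sets of the 54613 on the array that are not controls. A549, an established human line from a lung carcinoma, was cultured for 12 h with TGF-β at 1 ng/ml, or without TGF-β, and the RNA of both cultures was measured on Affymetrix arrays. The labels do not settle whether the control culture was kept for the same 12 h, which bears on every fold given here. The study used the arrays to look for genes whose RNA was altered by the time the membrane-bound transcription factor CREB3L1 is cleaved. There was 1 TGF-β array and 1 control array, so no difference has a replicate check, and no p-value, error or interval can be given.

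Values are MAS5 signals, intensities on a linear scale with 1 value per probe set, and a fold change is the TGF-β signal over the control signal. The trimmed mean signal was 500 on both arrays. Background was read from 27 probe sets for Bacillus subtilis transcripts, and its highest signal was 56.6 on the TGF-β array and 45.8 on the control array. Where a signal lay at or under this level, the fold was computed against the level and is given as "at least". A gene was represented by its brightest probe set, provided that the mean of its TGF-β and control signals reached 48.7, the median over all probe sets, and 12374 genes, 9 of the 10 among them, met this. Below, a difference of at least 2-fold is called higher or lower by its size alone, without a test. All 5 epithelial markers examined (KRT8, KRT18, KRT19, EPCAM and CDH1) were above background on both arrays, while CDH1 was 2.31-fold lower with TGF-β. These markers are those of epithelial cells in general and do not identify A549. Of 6 fibroblast markers only THY1 passed the filter, with 21.8 on the TGF-β array and 82.5 on the control array. Of the immune and endothelial markers listed, 3 and 4 had a probe set of their symbol, and only CD3E, CD14 and PECAM1 passed. CD14 read 63.0 with TGF-β and 190 in the control, and CD3E and PECAM1 stayed between 48.8 and 74.8 on both arrays. The part of these markers in the results was not tested. RNA came from whole cultures, so more RNA per cell and a larger share of cells making it cannot be told apart.

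BMPs and activins are dimeric ligands of the TGF-β superfamily. BMPs bind type I and type II serine kinase receptors that phosphorylate Smad1, Smad5 and Smad9, whereas activins signal through Smad2 and Smad3, the Smads that TGF-β itself uses. Outside the cell their reach is set by antagonists: noggin (NOG) and gremlin 1 (GREM1) trap BMPs, and follistatin (FST) and its relative FSTL3 trap activins. In lung these ligands and antagonists are known for roles in branching of the airways and in fibrosis.

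After 12 h with TGF-β, 4 of the 9 genes that passed the filter were called higher, namely BMP6, NOG, GREM1 and FSTL1, and 2 were called lower, BMP4 and INHBB. Over all 12374 genes 3.94% were called higher and 2.96% lower. Because the genes were chosen with earlier results of these arrays known, these counts describe the list and test nothing. BMP2, at 1.98-fold, and FSTL3, at 1.91-fold, stayed just under the threshold, and FST was 1.46-fold lower. At a threshold of 1.5-fold, which was chosen after the values were seen, 6 of the 9 were higher and 2 lower, against 9.16% and 9.08% of all genes. The median log2 fold change was 0.99 over the 9 genes and -0.03 over all genes that passed the filter, and it was again 0.99 with NOG and INHBB taken at their bounds. Among the ligands the directions were mixed, with BMP2 and BMP6 above and BMP4 and INHBB below the control. Among the 5 binding proteins FST alone was below the control.

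**Figure D1:**
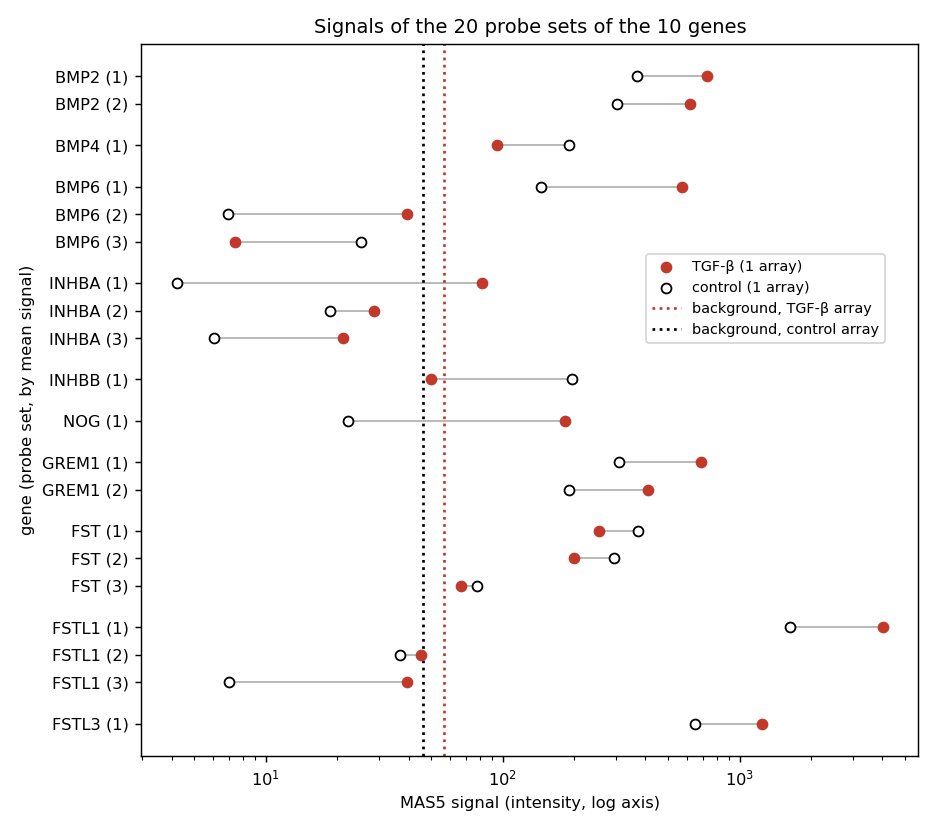
MAS5 signals (x axis, log scale) of the 20 probe sets of the 10 genes (y axis, numbered by falling mean signal within a gene) on the TGF-β array (red points) and the control array (open points), with dotted lines at the background level of each array (56.6 for TGF-β, 45.8 for control). Both signals were above background for 11 probe sets, of which 7 were higher and 4 lower with TGF-β, and the 6 probe sets of BMP6, INHBA and FSTL1 that lie left of both lines measured background only.

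The sequences before the start sites of several of these genes are shown because genes with higher and with lower signals can then be read side by side. RefSeq promoter windows (GRCh38.p14) were at hand for 8 of the 10 genes, all but BMP2 and NOG, and the 250 bases before the start were searched on both strands for CAGACA and GTCTAGAC (Smad binding elements), GGCGCC (a GC-rich Smad site), TGACTCA (AP-1), TGACGTCA (CRE) and TATAAA, the usual letters of a TATA box. No searched motif contains another. The windows printed are GREM1 (chr15:32717754-32718003, plus strand, the upstream window of 2), FSTL1 (chr3:120450993-120451242, minus strand), INHBB (chr2:120345886-120346135, plus strand) and BMP6 (chr6:7725849-7726098, plus strand), each read 5′ to 3′ on the strand of its gene and ending at the base before the start. Capitals mark matches.
GREM1: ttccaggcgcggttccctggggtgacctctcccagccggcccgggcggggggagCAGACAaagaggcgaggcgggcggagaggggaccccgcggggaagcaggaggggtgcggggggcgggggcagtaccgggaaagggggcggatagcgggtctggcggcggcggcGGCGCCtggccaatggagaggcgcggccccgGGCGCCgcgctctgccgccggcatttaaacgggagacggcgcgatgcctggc
FSTL1: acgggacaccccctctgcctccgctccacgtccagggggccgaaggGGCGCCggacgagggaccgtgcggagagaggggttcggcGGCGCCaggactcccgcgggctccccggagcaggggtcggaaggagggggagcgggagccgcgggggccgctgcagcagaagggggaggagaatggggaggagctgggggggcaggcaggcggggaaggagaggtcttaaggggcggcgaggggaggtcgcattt
INHBB: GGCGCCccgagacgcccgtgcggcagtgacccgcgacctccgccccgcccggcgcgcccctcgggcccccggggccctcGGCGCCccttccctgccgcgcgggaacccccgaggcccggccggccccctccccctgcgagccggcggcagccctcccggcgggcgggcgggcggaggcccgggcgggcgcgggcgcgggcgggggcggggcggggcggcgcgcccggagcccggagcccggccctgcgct
BMP6: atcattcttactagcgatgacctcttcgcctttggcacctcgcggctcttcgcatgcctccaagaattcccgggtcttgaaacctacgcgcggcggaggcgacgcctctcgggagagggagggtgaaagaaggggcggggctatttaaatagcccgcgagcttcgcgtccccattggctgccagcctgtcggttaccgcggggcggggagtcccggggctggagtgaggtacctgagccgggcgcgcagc
GREM1, higher with TGF-β, holds a Smad binding element with its first base at position -196 from the start and GC-rich Smad sites at -83 and -52. FSTL1, also higher, holds GC-rich Smad sites at -204 and -165, and INHBB, which was lower, holds them at -250 and -171. BMP6, with the largest rise among the 10 genes between signals that were both above background, has no match in its window, and neither has FST. The 8 genes have 11 windows, 3 of them for BMP4 and 2 for GREM1. The GC-rich Smad site was found in 5 of the 11 windows, which belong to BMP4, FSTL1, FSTL3, GREM1 and INHBB, and the Smad binding element in 2, which belong to BMP4 and GREM1. In BMP4 these matches lie in different windows, and the third has none. Of 35116 windows of the same length over all genes, 16.4% hold the GC-rich Smad site and 13.6% the Smad binding element in its short form. The letters TATAAA were found in 2 of the 11 windows, those of INHBA and FSTL3, against 10.7% of all windows, and the remaining motifs in none of the 8 genes. The match starts at -11 in INHBA, and in FSTL3 at -29 on the opposite strand. The printed windows are rich in G and C, with 76.8% for GREM1, 74.4% for FSTL1, 89.6% for INHBB and 64.4% for BMP6, against a median of 58% over all windows. The GC-rich Smad site thus stood before genes that were higher and genes that were lower, and a match is a description of the letters only.

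BMP2 and BMP4 are close relatives that bind the same receptors, and on these arrays the BMP2 signals were above and the BMP4 signal below the control. The brighter BMP2 probe set read 728 on the TGF-β array and 368 on the control array, which is 1.98-fold higher. The other read 614 with TGF-β and 303 without it, a 2.02-fold difference. The BMP2 probe sets thus lie on either side of the 2-fold threshold although their log2 fold changes, 0.99 and 1.02, differ by only 0.03. The spread of log2 fold changes over the 500 probe sets nearest in signal to the brighter one, which measures how probe sets vary within this pair of arrays and not how cultures vary, was 0.33. BMP4 had a single probe set, and its name ends in _s_at and so marks possible shared targets. It read 94.6 with TGF-β and 190 in the control, a log2 fold change of -1.01, or 2.01-fold lower. The spread at this signal was 0.52, and the TGF-β signal was 1.67 times the background level. BMP4 fell short of 2-fold when the arrays were scaled by their medians, by quantile normalization or by loess, and when 50 was added to every signal.

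BMP6, which in liver drives the iron hormone hepcidin, showed the largest rise of the ligands with both signals above background. Its informative probe set read 571 with TGF-β and 145 in the control, 3.94-fold higher with a log2 fold change of 1.98 and a spread at this signal of 0.39. The control signal was 3.16 times the background level and the TGF-β signal 10.1 times. The other BMP6 probe sets lay under background on both arrays, with 39.4 and 7.44 on the TGF-β array against 6.93 and 25.2 on the control array, so they give no fold.

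INHBA and INHBB encode the β subunits of activin A and activin B, and each also joins the inhibin α subunit to form inhibins. INHBB had a single probe set, which read 49.6 on the TGF-β array, under background, and 196 on the control array. The INHBB signal was therefore at least 3.45-fold lower with TGF-β. The ratio of the signals as deposited is 3.94-fold, and the spread at this signal was 0.51 in log2. INHBA did not pass the filter on dim signals with any of its 3 probe sets. Its brightest read 81.7 with TGF-β, only 1.44 times the background level, and 4.20 in the control, far under background. By this probe set INHBA was at least 1.78-fold higher, and the spread at this signal was 2.10 in log2. The other INHBA probe sets were under background on both arrays, at 28.5 and 21.2 with TGF-β and 18.7 and 6.02 without it. By its brightest probe set alone, INHBA was thus above background on the TGF-β array only. INHBB was above it on the control array only, with a TGF-β signal close under the level, at 0.88 times.

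**Figure D2:**
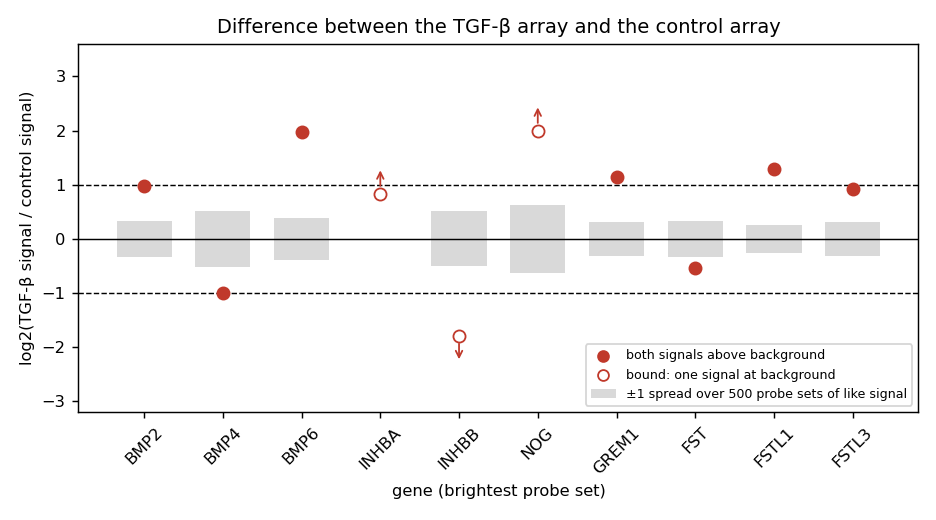
Log2 of the TGF-β signal over the control signal (y axis) for the brightest probe set of each gene (x axis), with filled points where both signals were above background, open points with arrows at the bound where a signal was at background, and grey bars of ±1 spread over the 500 probe sets of like signal. Dashed lines mark 2-fold. BMP6 lies at 1.98, BMP2 and FSTL3 lie just under the upper line, BMP4 lies at the lower line, and INHBA, which did not pass the filter, has no bar.

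The BMP antagonists NOG and GREM1 were both higher with TGF-β. Noggin binds BMP2 and BMP4 and keeps them from their receptors. Its only probe set read 183 on the TGF-β array and 22.2 on the control array, where it was under background, so NOG was at least 3.99-fold higher. The spread at this signal was 0.63 in log2. NOG passed the filter only through its TGF-β signal. Gremlin 1 belongs to the DAN family of cystine-knot proteins and binds BMP2, BMP4 and BMP7. The brighter GREM1 probe set read 685 with TGF-β and 310 in the control, a 2.21-fold difference. The other read 409 with TGF-β and 190 in the control, 2.15-fold higher, so that the log2 fold changes, 1.14 and 1.11, differ by 0.04. All GREM1 signals were more than 4 times the background level, the lowest being 4.15 times, and the spread at the brighter probe set was 0.31.

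The follistatin family was not on a single side of the control. Follistatin binds activins nearly irreversibly, and FST was lower with TGF-β by less than 2-fold. Its brightest probe set, whose name marks possible shared targets, read 255 with TGF-β and 372 in the control, a log2 fold change of -0.54. The next read 200 and 293, a log2 fold change of -0.55. The third, close to background, read 66.9 with TGF-β and 77.5 in the control, a log2 fold change of -0.21. All 3 FST probe sets thus had the lower signal on the TGF-β array, and the spread at the brightest was 0.34. FSTL3, which binds activins and myostatin, read 1235 with TGF-β and 648 in the control. This is 1.91-fold higher, with a log2 fold change of 0.93 against a spread of 0.31, and it rests on a single probe set with a name that marks possible shared targets. FSTL1, first cloned from mouse cells as a gene stimulated by TGF-β, carries a follistatin-like domain. Its bright probe set read 4026 on the TGF-β array and 1635 on the control array, 2.46-fold higher. The log2 fold change of 1.30 compares with a spread of 0.26 at this signal, and both signals were more than 35 times the background level, 71.1 times with TGF-β and 35.7 times in the control. The remaining FSTL1 probe sets were under background on both arrays, with 45.3 and 39.4 with TGF-β and 36.9 and 6.97 without it. The activin antagonists FST and FSTL3 thus differed in direction, though neither reached 2-fold.

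**Figure D3:**
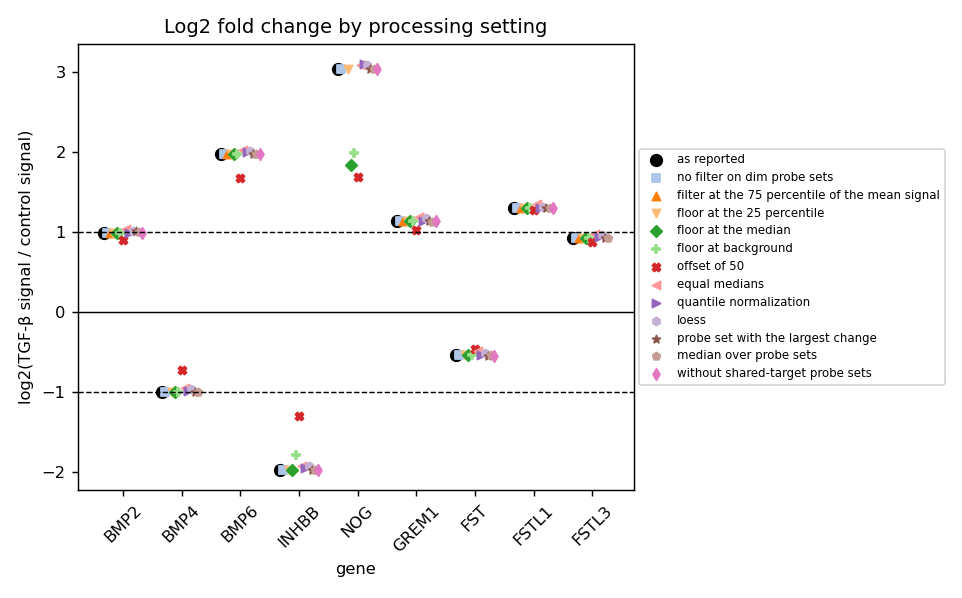
Log2 of the TGF-β signal over the control signal (y axis) of the 9 genes that passed the filter (x axis), as reported (black) and under up to 12 other ways of processing the same signals (colours and shapes), fewer where the stricter filter or the loss of shared-target probe sets removed a gene. Dashed lines mark 2-fold. Each gene keeps its direction wherever it has a value, NOG ranges between 1.69 and 3.10 and INHBB between -1.98 and -1.30, and BMP2 and BMP4 cross a dashed line.

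The other genes of the pathway were read by the same rule from lists fixed by role. For comparison, 3.94% of all 12374 genes were higher and 2.96% lower. Of 25 other ligands listed, 21 had a probe set of their symbol and 8 passed the filter. Of these 8, 1 was higher, 1 lower and 6 neither. The lower one, GDF15, a stress-induced member of the superfamily, read 197 with TGF-β and 1069 in the control by a probe set that can bind other transcripts, a 5.43-fold difference, while its remaining probe sets were under background. The higher one, GDF11, a relative of myostatin, read 154 with TGF-β and 61.8 in the control, 2.48-fold higher. Another GDF11 probe set went the other way, with 77.1 with TGF-β and 105 in the control, and a further one read 58.9 and 56.2, so the direction of GDF11 depends on the probe set. Of 10 receptors and co-receptors that passed the filter, only BMPR2 was called. BMPR2, the type II receptor of BMPs, read 2067 with TGF-β and 859 in the control, 2.41-fold higher, and the other 4 of its probe sets with both signals above background were also higher, between 1.91-fold and 2.32-fold. ACVR1, the type I receptor through which BMP6 signals, read 2392 with TGF-β and 1555 in the control, 1.54-fold higher. The activin receptors differed less, with ACVR1B at 1035 with TGF-β and 1089 in the control, and ACVR2A at 206 and 294. BAMBI, a pseudoreceptor without a kinase domain, read 6690 with TGF-β and 7055 in the control.

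Of 10 further antagonists and extracellular modulators none was higher, where 3.94% of all genes were. KCP alone was called lower, by 2.02-fold as deposited, but its TGF-β signal of 54.1 was under background and the bound is at least 1.94-fold. TWSG1, which binds BMPs together with chordin, read 2706 with TGF-β and 2919 in the control, and CRIM1, a membrane protein that binds BMPs, read 2275 and 2321. With 3.94% of all genes higher, a count of none among 10 genes is near that share. No contrast with NOG and GREM1 is read from it, and a difference between the lists was not tested. The genes of both lists were chosen with earlier results of these arrays known.

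Among 12 Smads and Smad regulators 4 were higher and none lower, against 3.94% and 2.96% of all genes. The signal transducers of BMPs differed little, with SMAD1 at 1799 with TGF-β and 1801 in the control and SMAD5 at 2025 and 2029. The 4 higher genes regulate the pathway or respond to it. PMEPA1, SKIL and SMAD7 also stood on a list of genes that respond to TGF-β itself. Of the 6 genes of that list that passed the filter, 5 were higher, namely PMEPA1, SKIL, SMAD7, CCN2 and COL1A1. TGFBI, at 1.29-fold, was not called. CCN2 (CTGF) and COL1A1 were already among the genes that the study listed from these arrays, so this count tests nothing. Whether BMPs or activins had a part in these changes was not tested. PMEPA1 was 3.79-fold higher by its brightest probe set and 6.84-fold and 4.57-fold by the others. The corepressor SKIL was 2.72-fold higher by its brightest probe set. The further SKIL probe sets with both signals above background were each 3.90-fold higher. Another was at least 1.39-fold higher, and the last was under background on both arrays. The ubiquitin ligase SMURF2, which targets Smads and receptors, was 2.14-fold higher, and the inhibitory SMAD7 was 2.06-fold higher, with 1620 on the TGF-β array and 786 on the control array. Of 13 genes known to respond to BMPs, 1 was higher, which was SMAD7, and 3 were lower, ID2, ID4 and ATOH8. The ID genes encode inhibitors of helix-loop-helix transcription factors and are direct targets of BMP Smads. ID2 read 408 with TGF-β and 1453 in the control, 3.56-fold lower, and ID4 read 333 and 1599, 4.81-fold lower. The other ID2 probe set, with a name that marks possible shared targets, read 81.6 with TGF-β and 263 in the control, 3.23-fold lower. Another ID4 probe set with both signals above background, whose name marks possible shared targets, read 119 with TGF-β and 231 in the control, 1.94-fold lower and so under the threshold. Further ID4 probe sets, with a TGF-β signal under background, were at least 4.03-fold and at least 2.89-fold lower, and the last was under background on both arrays. ATOH8 was at least 2.33-fold lower, with a TGF-β signal under background, and it passed the filter only through its control signal. ID1 read 12563 with TGF-β and 14791 in the control, and ID3 read 16174 and 10528, 1.54-fold higher, so the ID genes were not all on the same side of the control.

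**Figure D4:**
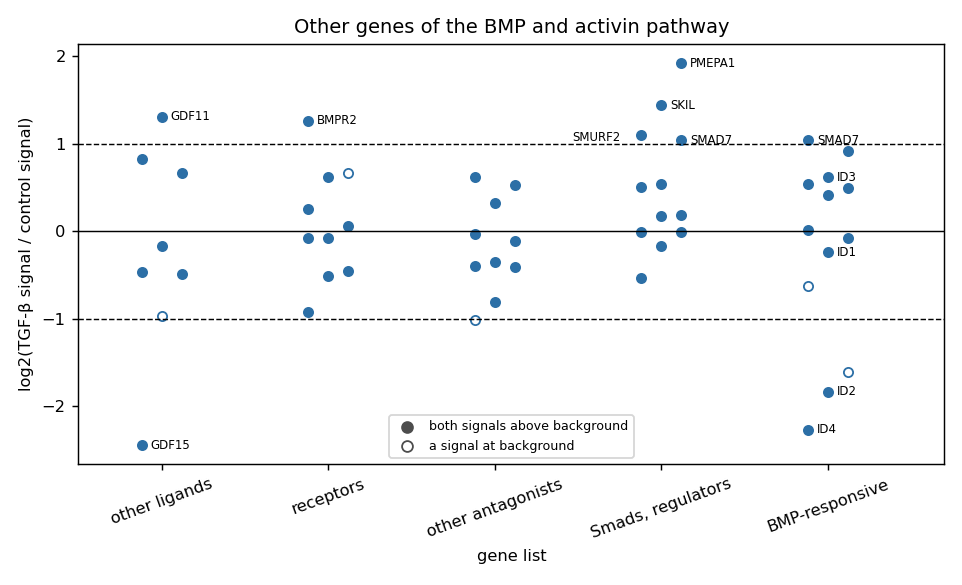
Log2 of the TGF-β signal over the control signal (y axis) of the genes that passed the filter in 5 lists of the pathway (x axis), each gene by its brightest probe set, filled where both signals were above background and open where a signal was not. SMAD7 stands in both lists on the right, dashed lines mark 2-fold, and beyond them lie PMEPA1, SKIL, SMURF2, SMAD7, BMPR2 and GDF11 above and GDF15, ID2, ID4, ATOH8 and KCP below.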

How the data were processed

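RNA of A549 cells with and without TGF-β was measured on 1 array each. The intensities deposited by the authors are MAS5 signals per probe set on a linear scale, and the submitters' processing notes name MAS5 without a version. Other settings and a genome build were not given in the sources used here. Symbols came from the platform annotation, updated through RefSeq gene identifiers (GRCh38.p14). Of 54613 probe sets, 1801 carried several symbols and were left out of gene counts, as were those without a symbol. Listed genes without a probe set of their symbol were not analysed here.

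Log2 fold changes were computed with Python 3.11.15, numpy 2.4.6, pandas 2.3.3 and statsmodels 0.14.6, and plots drawn with matplotlib 3.10.9. The spread at a signal is 1.4826 times the median absolute deviation of log2 fold changes over the 500 nearest probe sets that passed the filter. The 2-fold rule was first run on simulated data whose planted changes were all larger than 2-fold. That run held no variation between cultures and does not bear on changes near the threshold. No test was possible with 1 array per condition, and precision is limited by that number. The alternatives were 12 changes to the filter, floors, scaling and choice of probe set.

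The 10 genes, the lists and the rule for named genes were chosen with earlier results of these data known. Named genes were the 10, up to 6 genes per list called with both signals above background, the 2 brightest of a list where fewer than 2 qualified, and receptors, Smads and ID genes set by name. KCP, ATOH8, TGFBI and the cell type markers given with values were named after their values were seen.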

Additional observations from a re-analysis of the deposited data

How the results depend on the processing

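Variation between cultures is not covered by any of these settings. No paired analysis was possible because each group has a single array, and no array could be left out. Of the 9 genes that passed the filter, 4 were at least 2-fold higher and 2 lower. The count of lower genes was 0 with a filter at percentile 75 of the mean signals (350), which keeps only 5 of the genes, and 1 with an offset of 50, with equal medians, quantile normalization or loess, each of which took BMP4 to less than 2-fold, and 1 without shared-target probe sets, which removes BMP4 and FSTL3. The count at least 2-fold higher lay between 3 and 5 in all 12 of these settings, and it was 5 where BMP2 passed (equal medians, loess and both other choices of probe set) and without the filter, where INHBA enters with a control signal under background. The median log2 fold change of the genes lay between 0.90 and 1.14. NOG had a log2 fold change of 3.04 as deposited, 1.84 with the floor at the median and 1.69 with the offset, and the floor at background gives its bound of 3.99-fold, and INHBB had -1.98 as deposited and -1.30 with the offset. These settings act on dim signals by construction. Among all genes the filter, the floors and the offset moved the counts too, with 2110 higher and 2395 lower without the filter and 295 and 134 with the offset, against 487 and 366 as reported. Signal over background limits NOG, INHBA and INHBB, each with a signal at background.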
